A study of Arabidopsis thaliana with 15 samples.

Results

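The 5 group V genes of the Arabidopsis thaliana B-box family were BBX28 (AT4G27310), BBX29 (AT5G54470), BBX30 (AT4G15248), BBX31 (AT3G21890) and BBX32 (AT3G21150). They were taken by locus identifier from a count table of 33602 genes, and all 5 were among the 20833 genes with enough reads to be tested. RNA had been sequenced from whole 4-day-old seedlings of Col-0 wild type, of uvr8-6, a Col-0 line mutated in the UV-B photoreceptor gene UVR8, and of pif4-101 pif5-1, mutated in the transcription factor genes PIF4 and PIF5. All seedlings grew on sucrose-containing medium in continuous white light of 3.6 µmol per square metre and second. Wild type and uvr8-6 either stayed in white light or received 6 h of added narrowband UV-B, with cut-off filters over both treatments, and pif4-101 pif5-1 was sampled in white light alone. This gave 15 libraries in 5 groups of 3, each library made from 30 pooled seedlings, and the series design states that replicates came from independent plates.

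B-box proteins are zinc finger regulators of transcription, and many of them act in light signalling together with the bZIP factor HY5 and the ubiquitin ligase COP1, which targets light signalling factors for degradation. Group V proteins carry a single B-box and none of the CCT domain found in CONSTANS, the founding member of the family. Several act through the proteins they bind: BBX28 lowers the activity of HY5, BBX30 and BBX31 are microproteins that join CONSTANS to the corepressor TOPLESS, and BBX32 binds other B-box proteins and represses light responses. UV-B absorbed by UVR8 blocks COP1 and lets HY5 accumulate.

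The libraries held 19.3 to 30.4 M counted reads. Levels are given as CPM, that is reads of a gene per 1 M reads of its library after TMM scaling, and the limit that a count of 0 allows, 3 reads, equals 0.0978 to 0.156 CPM (counting error alone). Changes are log2 fold changes with their standard error from edgeR, and a gene was called higher or lower at a Benjamini-Hochberg adjusted p under 0.05 over all 20833 genes. The p-values measure the spread between libraries from independent plates. UVR8 was called lower in uvr8-6 than in wild type in white light (log2 fold change -2.54 ± 0.13), and PIF5 was called lower in pif4-101 pif5-1 (-4.43 ± 0.22). PIF4 was not called there (-0.54 ± 0.40), and whole-gene counts leave the pif4-101 allele unchecked. Wild type in white light replicate 1 held 0.446% mitochondrial and 0.208% chloroplast gene reads, against 0.0477 to 0.131% and 0.0163 to 0.0505% in the other libraries. Because tissues were mixed, fewer cells of a type and less RNA per cell cannot be told apart. Marker genes of green tissue (4 genes), root (4 genes) and seed remnants (3 genes) were detected, none of them at 0 in all libraries. Their summed levels in wild type were 27900 to 39800, 178 to 256 and 0.932 to 8.35 CPM in white light and 27900 to 41100, 154 to 233 and 0.698 to 1.55 CPM under UV-B. In uvr8-6 under UV-B they were 19700 to 36300, 224 to 259 and 2.57 to 50.1 CPM. In pif4-101 pif5-1 they were 50800 to 63100, 106 to 198 and 1.43 to 13.1 CPM, with green tissue above every wild-type library in white light. Of the 11 markers, RBCS1A was called higher in wild type with UV-B (0.94 ± 0.25, edgeR adjusted p = 0.011), a call lost without wild type white light replicate 3 (0.0601). CASP1 was called lower in pif4-101 pif5-1 (-0.99 ± 0.19, edgeR adjusted p = 0.00901), lost with the compared groups alone (0.0544). Between the genotypes under UV-B LHCB2.1 was called higher in wild type (0.81 ± 0.23) and COBL9 (-0.67 ± 0.23), CRU3 (-5.74 ± 1.73) and CRA1 (-4.82 ± 1.45) lower (edgeR adjusted p = 0.0187, 0.0461, 0.0264 and 0.0259). LHCB2.1 lost its call without wild type UV-B replicate 3 or uvr8-6 UV-B replicate 2 or 3, and with 1 surrogate variable (adjusted p from 0.0685 to 0.0938). COBL9 lost it without any 1 of the UV-B libraries other than wild type replicate 1, with a replicate block and with the surrogate variable (0.054 to 0.169). The seed storage genes CRU3 and CRA1 stood at 17.9 and 31.1 CPM in uvr8-6 UV-B replicate 2 and at 1.29 CPM or less in the other UV-B libraries. Both lost their calls without that library (adjusted p = 0.474 and 0.365), without any 1 wild-type UV-B library and with limma-voom (0.0606 to 0.255). The part of these markers in the results on the B-box genes was not tested.

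The promoters of BBX30, BBX31 and BBX32 are shown. The first 2 were taken because these genes have the most similar pattern over the libraries within the group, with each gene centred on its own mean. The last was taken because BBX32 had the largest UV-B response of the group. The runs of BBX30 and BBX31 cover 270 bases before and 30 bases from the annotated gene start in TAIR10.1. That of BBX32 starts 48 bases before the gene, because the other 222 bases of its window lie inside the upstream gene AT3G21160, and capitals mark ACGT, the core of the sites that HY5 binds.
BBX30, chr4:8708571-8708870, plus strand: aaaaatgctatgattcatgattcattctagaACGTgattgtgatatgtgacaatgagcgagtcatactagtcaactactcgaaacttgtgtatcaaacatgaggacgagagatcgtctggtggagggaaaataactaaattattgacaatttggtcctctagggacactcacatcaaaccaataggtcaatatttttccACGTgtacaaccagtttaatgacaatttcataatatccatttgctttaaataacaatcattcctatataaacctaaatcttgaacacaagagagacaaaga
BBX31, chr3:7709904-7710203, minus strand: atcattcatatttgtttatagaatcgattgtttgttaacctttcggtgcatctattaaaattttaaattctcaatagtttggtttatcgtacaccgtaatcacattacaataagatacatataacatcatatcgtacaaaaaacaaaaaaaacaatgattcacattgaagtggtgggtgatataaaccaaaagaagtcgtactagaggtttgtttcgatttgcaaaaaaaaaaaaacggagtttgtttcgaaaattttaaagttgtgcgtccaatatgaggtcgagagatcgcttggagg
BBX32, chr3:7413698-7413775, minus strand: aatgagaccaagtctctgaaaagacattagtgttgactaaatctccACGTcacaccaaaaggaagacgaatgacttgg
The core ACGT, which reads the same on both strands, was in the promoters of 4 of the 5 genes, and 49.8% of 27443 promoters of the same length held it. BBX30 held it at positions -239 and -71 from the gene start, BBX28 at -5, BBX29 at -34 and BBX32 at -2, while no ACGT was found in this window of BBX31. The second match in BBX30 lies inside the G-box CACGTG, which 7.51% of promoters held and no other group V promoter did. The E-box CACATG, which PIF proteins bind and which was searched on both strands like the others, was in none of the 5 promoters and in 13% of all. The I-box GATAAG, known from light-responsive promoters, was also in none, against 14.8% of all, and the sequence TATAAA of the TATA box was in those of BBX30, BBX31 and BBX32, against 52.7%. The 4 matches of TATAAA in the window of BBX32, at -180 to -118, all lie inside AT3G21160. These matches are letters found in a window, not sites shown to be bound.

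A stretch upstream of BBX30 was alike to one at the start of BBX31, which was noticed after the sequences had been seen. It is shown because, among the best local alignments of each pair of promoters, it is the longest that has no gaps. Ungapped parts of the other alignments were not measured. Capitals mark the 33 of 42 bases that are identical.
BBX30, chr4:8708652-8708693, plus strand: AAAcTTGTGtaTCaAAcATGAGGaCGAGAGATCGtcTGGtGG
BBX31, chr3:7709904-7709945, minus strand: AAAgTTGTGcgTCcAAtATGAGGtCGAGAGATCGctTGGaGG
In BBX30 the stretch lies at positions -189 to -148 and in BBX31 at -12 to 30 from the annotated start, 187 and 240 bases before the coding start. In BBX31 the stretch ends at the last base of the window, so its full length is not known. Its longest shared run, cgagagatcg, has 10 bases and was found in 4 of 27443 promoters on either strand. These 4 include BBX30 and BBX31, from which the run was taken, so the count is not a test of how rare it is. Local alignment scored 24 for this pair and 9 to 16 for the other 9 pairs.

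BBX28 (chr4:13675537-13677055, plus strand) and BBX29 (chr5:22114304-22115539, minus strand) have 2 exons each and encode 223 and 215 amino acids. BBX30 (chr4:8708841-8709482, plus strand) and BBX31 (chr3:7708833-7709933, minus strand) have 1 exon and encode 117 and 121 amino acids. BBX32 (chr3:7412445-7413727, minus strand) has 1 exon and encodes 225. Coding sequences were most alike for BBX28 and BBX29 (78% of aligned bases identical) and for BBX30 and BBX31 (74.6%), with 58.5 to 70.4% for the other pairs. No stretch of 100 bases, the read length, was shared between any pair, and the longest identical run was 17 bases. BBX32 overlaps its same-strand neighbour AT3G21140, which had 314 to 525 reads per library, by 13 bases at one end. On its other side AT3G21160, also on the same strand and with 504 to 953 reads per library, ends 48 bases before the start of BBX32. BBX30 lies 284 bases from BBX9 and BBX31 486 bases from BBX10, B-box genes on the opposite strand that had 0 or 1 read in each library.

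In wild type 6 h of UV-B raised 4 of the 5 genes: BBX32 rose 11.3-fold, BBX29 3.56-fold, BBX30 3-fold and BBX31 2.69-fold. BBX28 was not called. Over all tested genes 16.1% were called higher and 11.3% lower in this comparison. The median log2 fold change was 1.58 over the 5 genes and -0.01 over all.

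**Figure D1:**
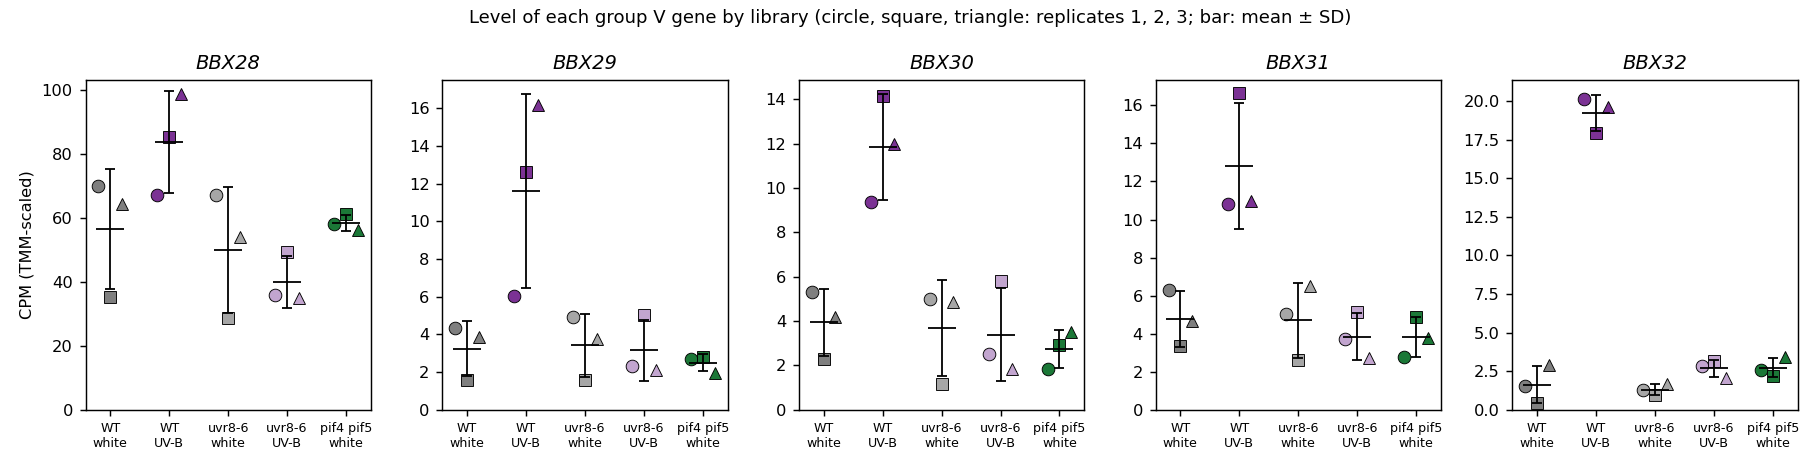
Level of each group V gene in CPM (vertical axis, linear, from 0) in the 15 libraries by group (horizontal axis), with symbols for replicates 1, 2 and 3 and bars for the mean ± SD. The 3 wild-type UV-B libraries lie above every other library for BBX29, BBX30, BBX31 and BBX32, with BBX32 at 17.9 to 20.1 CPM, and overlap other groups for BBX28. The share of all genes with such a separation was not counted.

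BBX32, a repressor of light responses, was at 1.56, 0.441 and 2.87 CPM in wild type in white light (replicates 1 to 3) and at 20.1, 17.9 and 19.6 CPM under UV-B. All 3 UV-B libraries were far above all white-light ones, and the reads behind these levels were 30, 9 and 88 against 466, 446 and 450. The log2 fold change was 3.50 ± 0.39 (edgeR adjusted p = 1.16e-05). On leaving out single libraries it ranged from 3.06 to 4.24, with 4.24 without white light replicate 3, the highest of the white-light libraries. Without the white-light replicate 2 libraries of both wild type and uvr8-6 it was 3.07. The white-light libraries differed among themselves, with replicate 2 lowest, whereas the UV-B group was narrow at 19.2 ± 1.15 CPM (SD, n = 3).

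In uvr8-6 BBX32 was at 1.27, 0.966 and 1.65 CPM without UV-B and at 2.82, 3.16 and 2.06 CPM with it. The groups did not overlap, but the log2 fold change of 1.05 ± 0.41 was not called by edgeR (unadjusted p of its quasi-likelihood test 0.0214, adjusted p = 0.281). The response in wild type exceeded that in uvr8-6 by 2.45 ± 0.56 on the log2 scale (edgeR adjusted p = 0.0161), and this was no longer called without uvr8-6 white light replicate 3 (2.21, edgeR adjusted p = 0.0631). It was 3.18 without wild type white light replicate 3. Under UV-B the wild type exceeded uvr8-6 by 2.84 ± 0.37 (edgeR adjusted p = 7.13e-05). In pif4-101 pif5-1 in white light BBX32 was at 2.57, 2.18 and 3.39 CPM, which overlapped wild type (0.68 ± 0.40, edgeR adjusted p = 0.366). That value was 1.45 (edgeR adjusted p = 0.0704) without wild type white light replicate 3 and 0.27 (0.644) without replicate 2. In the order of group means wild type under UV-B stood first, and among the other 4 groups, with means from 1.3 to 2.71 CPM, neighbours in that order overlapped.

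BBX30, a microprotein gene, was at 5.32, 2.31 and 4.20 CPM in white-light wild type and at 9.37, 14.2 and 12 CPM in UV-B-treated wild type. The lowest UV-B library was above the highest white-light one, and the log2 fold change was 1.58 ± 0.48 (edgeR adjusted p = 0.0228). That call was lost without wild type white light replicate 2 or 3 or without wild type UV-B replicate 2 or 3, where the edgeR adjusted p was 0.0847, 0.0629, 0.07 and 0.0549. BBX30 was at 5.01, 1.18 and 4.85 CPM in white-light uvr8-6 and at 2.52, 5.80 and 1.85 CPM in UV-B-treated uvr8-6, groups that overlapped (-0.10 ± 0.49, edgeR adjusted p = 0.962). Its responses differed by 1.68 ± 0.68, which was not called (edgeR adjusted p = 0.175), although it was called without uvr8-6 white light replicate 2 (2.08, edgeR adjusted p = 0.0466). Wild type exceeded uvr8-6 under UV-B by 1.79 ± 0.48 (edgeR adjusted p = 0.0139), a call lost without uvr8-6 UV-B replicate 1 or 3 (edgeR adjusted p = 0.0581 and 0.0655), while the difference was 2.40 without uvr8-6 UV-B replicate 2. Without that library the uvr8-6 response was -0.71 and the responses differed by 2.28 (edgeR adjusted p = 0.0648). In pif4-101 pif5-1 its level was 1.82, 2.93 and 3.49 CPM, overlapping wild type in white light (-0.51 ± 0.50, edgeR adjusted p = 0.619).

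BBX31, the other microprotein gene of the pair, was at 6.31, 3.34 and 4.66 CPM in white-light wild type and at 10.8, 16.6 and 11 CPM in UV-B-treated wild type. The groups did not overlap, with replicate 2 lowest in white light and highest under UV-B, and the log2 fold change was 1.43 ± 0.33 (edgeR adjusted p = 0.00506). In uvr8-6 it was at 5.01, 2.61 and 6.50 CPM without UV-B and at 3.70, 5.13 and 2.70 CPM with it, groups that overlapped (-0.28 ± 0.34, edgeR adjusted p = 0.793). The response in wild type exceeded that in uvr8-6 by 1.71 ± 0.48 on the log2 scale (edgeR adjusted p = 0.0448), close to the threshold. That call was lost with upper quartile scaling, with limma-voom and with a replicate block (adjusted p = 0.0575, 0.0556 and 0.0587). It was also lost on leaving out any 1 of wild type white light replicates 2 and 3, wild type UV-B replicates 1, 2 and 3, uvr8-6 white light replicates 1 and 3 and uvr8-6 UV-B replicates 1 and 3 (edgeR adjusted p from 0.0522 to 0.139). Under UV-B wild type exceeded uvr8-6 by 1.73 ± 0.34 (edgeR adjusted p = 0.0018). Its level in pif4-101 pif5-1, 2.79, 4.88 and 3.76 CPM, overlapped wild type (-0.32 ± 0.34, edgeR adjusted p = 0.662). For BBX30 and BBX31 alike wild type under UV-B had the highest mean and the other 4 groups overlapped one another.

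BBX28, whose protein lowers HY5 activity, was at 70, 35.2 and 64.4 CPM in white-light wild type and 67.2, 85.2 and 98.8 CPM in UV-B-treated wild type. These groups overlapped, and the log2 fold change of 0.57 ± 0.28 was not called (edgeR adjusted p = 0.151). It was called when 1 surrogate variable was added to the model (0.45, edgeR adjusted p = 0.0145), and was 0.30 without wild type white light replicate 2. In uvr8-6 BBX28 was at 67.2, 28.6 and 53.8 CPM without UV-B and at 35.8, 49.4 and 35 CPM with it, again with overlap (-0.31 ± 0.28, edgeR adjusted p = 0.699). All wild-type UV-B libraries were above all uvr8-6 UV-B libraries, a log2 difference of 1.06 ± 0.28 (edgeR adjusted p = 0.0134). That call was lost without wild type UV-B replicate 3 or uvr8-6 UV-B replicate 1 or 3 (edgeR adjusted p = 0.059, 0.0525 and 0.0594), and the difference was 0.60 (0.00652) with 1 surrogate variable. A difference of 0.88 ± 0.40 between the responses was not called (edgeR adjusted p = 0.226). In pif4-101 pif5-1 the levels of 57.9, 61.1 and 56.1 CPM lay within the range of wild type in white light (0.04 ± 0.28, edgeR adjusted p = 0.954). By group means the order was wild type under UV-B, pif4-101 pif5-1, wild type in white light and uvr8-6 without and with UV-B, and only the first stood apart from its neighbour.

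BBX29, whose coding sequence is closest to BBX28, was at 4.33, 1.57 and 3.85 CPM in white-light wild type and at 6.05, 12.6 and 16.2 CPM in UV-B-treated wild type. The groups did not overlap, UV-B replicate 1 lay well below the other 2, and the log2 fold change was 1.83 ± 0.47 (edgeR adjusted p = 0.00904). In uvr8-6 it was at 4.92, 1.57 and 3.73 CPM without UV-B and at 2.31, 5.02 and 2.1 CPM with it, which overlapped (-0.10 ± 0.48, edgeR adjusted p = 0.96). The difference of the responses was 1.93 ± 0.66 and not called (edgeR adjusted p = 0.105). With DESeq2 and with 1 surrogate variable it was called, at 1.94 (adjusted p = 0.0386) and 1.28 (adjusted p = 0.00568). Under UV-B wild type exceeded uvr8-6 by 1.87 ± 0.46 (edgeR adjusted p = 0.00912), and by 1.04 (0.00119) with 1 surrogate variable. Its level in pif4-101 pif5-1 was 2.70, 2.81 and 1.97 CPM, within the range of wild type in white light (-0.39 ± 0.49, edgeR adjusted p = 0.712). Wild type under UV-B had the highest mean, and the other 4 groups overlapped one another.

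**Figure D2:**
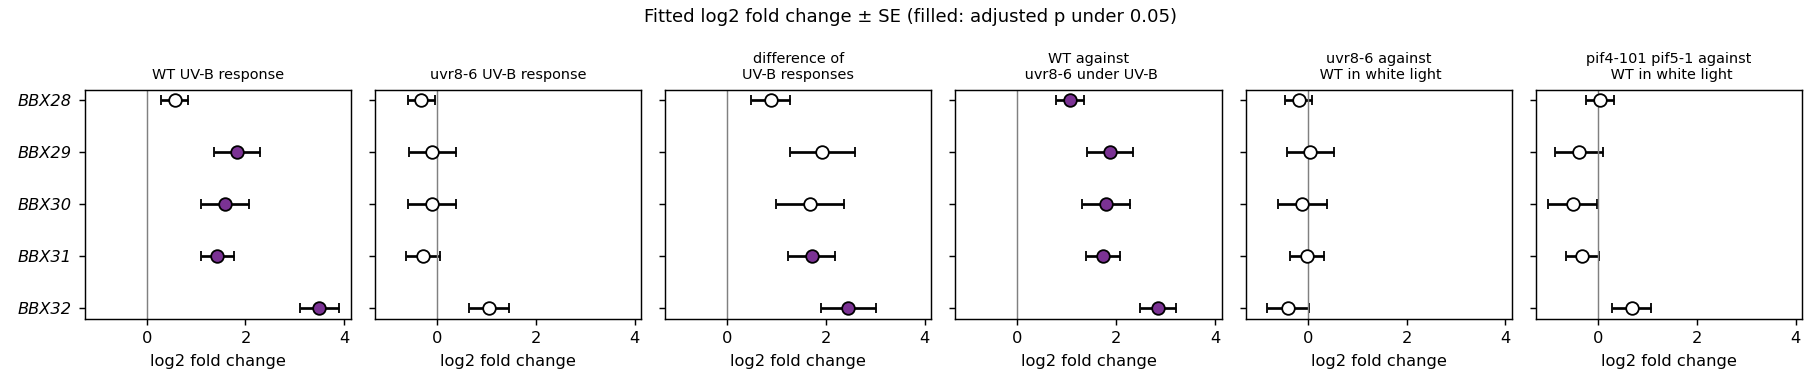
Fitted log2 fold change ± SE (horizontal axis) of the 5 genes (vertical axis) in each of the 6 comparisons, with filled points for an adjusted p under 0.05. Filled points are seen for 4 genes in the wild-type response, 2 in the difference of the responses and all 5 between the genotypes under UV-B, and for none in uvr8-6 or in white light.

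Counted over the group, UV-B called 0 of the 5 genes in uvr8-6 with edgeR, where 1.12% of all genes were called in either direction. BBX32 alone had an unadjusted p under 0.05, and DESeq2 and limma-voom called none either. The difference of the responses was called higher for 2 of the 5 genes, against 4.88% of all genes called higher and 1.72% called lower. Between the genotypes under UV-B all 5 were called higher in wild type, against 14.4% of all genes called higher and 9.18% called lower. These comparisons share libraries and are not separate evidence. In white light uvr8-6 differed from wild type in 0 of the 5 genes (0.0144% of all genes), with log2 fold changes from -0.39 to 0.05, and pif4-101 pif5-1 in 0 of the 5 (5.26% of all genes). In both of these edgeR gave no member an unadjusted p under 0.05, and DESeq2 and limma-voom called none. Standard errors of 0.28 to 0.50 in these comparisons leave changes of moderate size undetectable.

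Per kb of exon BBX28 had the highest level of the group in all 5 groups of libraries, with 39.6 ± 13.1 CPM per kb in white-light wild type and 58.7 ± 11.1 in UV-B-treated wild type (SD, n = 3). BBX32 had the lowest mean in 4 of them, at 1.27 ± 0.95 CPM per kb in wild type in white light, and ranked 3 of 5 under UV-B in wild type at 15 ± 0.89. The share of BBX28 in the summed level per kb of the 5 genes was 72.1 to 74.8% in wild type in white light and 49 to 54.4% under UV-B, while that of BBX32 went from 1.04 to 3.63% to 11.5 to 17%. In uvr8-6 the share of BBX28 was 67.7 to 76% in white light and 62.8 to 73.7% under UV-B, which overlap. That of BBX32 in uvr8-6 was 1.53 to 2.86% in white light and 4.47 to 6.01% under UV-B, which do not.

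**Figure D3:**
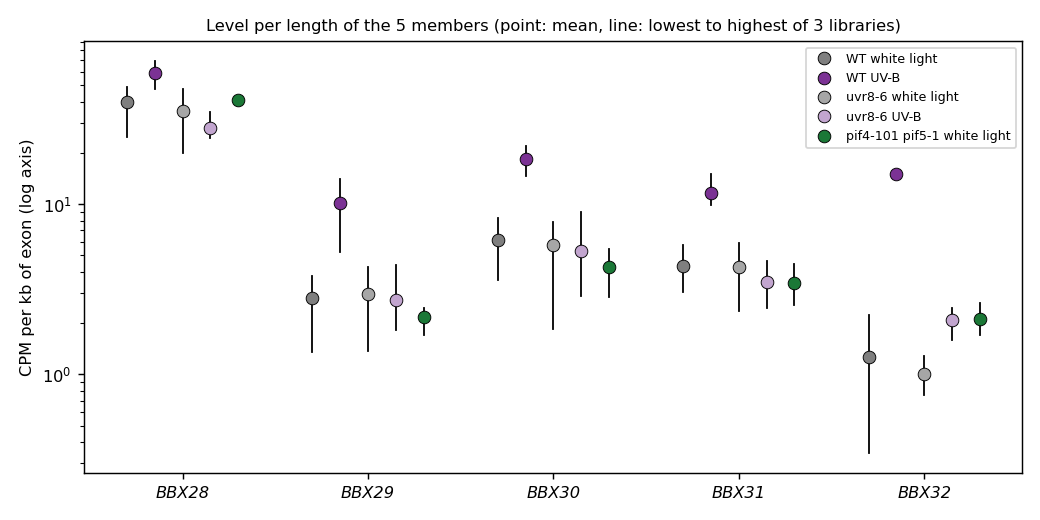
Level of each gene in CPM per kb of exon (vertical axis, log scale) in the 5 groups, as the mean (point) and the lowest and highest of 3 libraries (line). BBX28 lies above the other genes in every group, and BBX32 moves from the lowest mean in white light, 1.27, to 15 in wild type under UV-B.

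Ratios within a library compared the genes with each other. The log2 ratio of BBX31 to BBX30 was 0.24, 0.51 and 0.15 in wild type in white light and 0.20, 0.23 and -0.13 under UV-B, a change of -0.20 (exact two-sided permutation p = 0.4). The ratio of BBX32 to BBX31 was -1.94, -2.67 and -0.69 in white light and 0.89, 0.11 and 0.83 under UV-B, with no overlap (change 2.38, exact two-sided permutation p = 0.1). In uvr8-6 that ratio was -1.91, -1.37 and -1.93 in white light and -0.38, -0.69 and -0.38 under UV-B, likewise with no overlap (change 1.25, exact two-sided permutation p = 0.1). The ratio of BBX29 to BBX28 was -3.98, -4.40 and -4.04 in white light and -3.46, -2.75 and -2.60 under UV-B, also with no overlap (change 1.21, exact two-sided permutation p = 0.1). With 3 libraries against 3 the smallest p this test allows is 0.1, so no ratio could pass 0.05.

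Within groups the 5 genes varied more than most. The SD of log2 CPM around the group mean was 0.41 for BBX28, 0.69 for BBX29, 0.73 for BBX30, 0.47 for BBX31 and 0.62 for BBX32, against a median of 0.19 over all tested genes. BBX28, BBX29, BBX30 and BBX31 were all below their group mean in the same 5 libraries. In wild type white light replicate 2 their deviations were -0.89 to -0.46, and in uvr8-6 white light replicate 2 they were -1.33 to -0.71. In wild type UV-B replicate 1 they were -0.82 to -0.21, and in uvr8-6 UV-B replicates 1 and 3 they were -0.32 to -0.01 and -0.68 to -0.18. Taken library by library, 49.1 to 50.5% of all genes were below their group mean in these 5. The share of genes low in all 5 was not counted. PIF4, the only gene outside the group looked at in this way, deviated downwards in each of them too, by -0.90, -0.87, -0.75, -0.26 and -0.18. How many other genes did so was not counted, so this match singles out no link with PIF4. BBX32 did not follow in wild type UV-B replicate 1 (0.07) and uvr8-6 UV-B replicate 1 (0.09), and deviated furthest in wild type white light replicate 2 (-1.39) and replicate 3 (1.11). The surrogate variable, fitted over all tested genes, had its highest values in the 5 libraries where BBX28 to BBX31 were low. In the order given above it was 0.321, 0.419, 0.186, 0.318 and 0.361, and in every other library 0.094 or lower. What sets these libraries apart was therefore not seen in group V alone, and its cause was not tested. Leaving out both white-light replicate 2 libraries kept BBX31 and BBX32 as the called differences of the responses (log2 1.78 and 2.18, edgeR adjusted p = 0.028 and 0.00538).

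**Figure D4:**
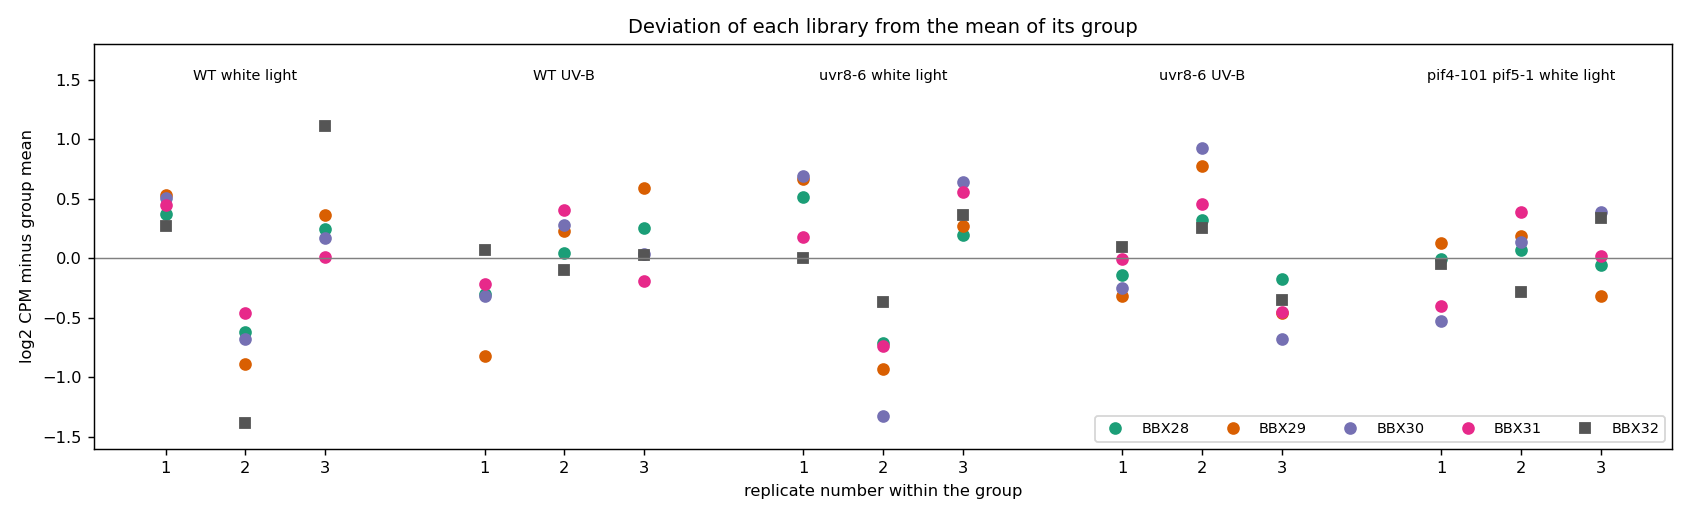
Deviation of log2 CPM from the group mean (vertical axis) for each gene and library, by group and replicate number (horizontal axis). BBX28, BBX29, BBX30 and BBX31 lie together below 0 in replicate 2 of both white-light groups, by -0.46 to -1.33, and BBX32 (squares) spans -1.39 to 1.11 in wild type in white light.

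Genes with the most similar pattern were taken as those with the smallest root mean square difference of centred log2 CPM over the 15 libraries, as a description. For BBX28 these were BBX24 (STO, 0.157), CDF3 (0.171), a Dof transcription factor gene, and AT5G06980 (0.205). For BBX29 they were AT3G49160 (0.33), NIT4 (0.356), a nitrilase gene, and BBX30 (0.375). BBX30 was closest to BBX31 (0.329), BBX29 (0.375) and TCH4 (0.421), a gene of a cell wall xyloglucan enzyme, and BBX31 to MIPS2 (0.272), an inositol phosphate synthase gene, AT5G44005 (0.275) and AT1G05340 (0.308). For BBX32 the closest were AT1G65490 (0.414), ASG4 (0.477) and AT4G16880 (0.508).

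The rest of the family gives the setting. Of 27 other B-box genes 23 were tested, and BBX9, BBX10, BBX23 and BBX26 had too few reads. In wild type UV-B called 7 of the 23 higher and 5 lower (16.1% and 11.3% over all genes), with a median log2 fold change of 0.23. Outside group IV those called higher were BBX11 (1.74 ± 0.15), BBX3 (0.54 ± 0.15) and BBX1. Those called lower were BBX17 (-1.65 ± 0.32), BBX12 (-0.84 ± 0.15), BBX27 (-0.66 ± 0.14) and BBX13 (-0.49 ± 0.12). The call of BBX3 was lost without wild type UV-B replicate 3 (edgeR adjusted p = 0.0714). In uvr8-6 BBX11 alone was called, higher by 0.89 ± 0.15 (edgeR adjusted p = 0.00867), and this was lost with the compared groups alone (adjusted p = 0.0642) and without uvr8-6 white light replicate 1 (0.0674) or 3 (0.0514). The difference of the responses was called higher for 4 of the 23 (4.88% of all genes), with a median of 0.33. Between the genotypes under UV-B 11 of the 23 were called higher in wild type and 3 lower (14.4% and 9.18% of all genes). BBX2 (0.65 ± 0.17), BBX15 (0.42 ± 0.13) and BBX16 (1.15 ± 0.39) were among the higher ones and had not been called in the wild-type response (edgeR adjusted p = 0.012, 0.0351 and 0.0443). BBX2 lost its call without wild type or uvr8-6 UV-B replicate 3 (0.0534 and 0.0618). BBX15 lost it without wild type UV-B replicate 3, without uvr8-6 UV-B replicate 2 or 3 and in 4 other settings (0.0507 to 0.188). BBX16 lost it without any 1 of the UV-B libraries other than wild type replicate 1 and in 3 other settings (0.0542 to 0.189). BBX17, lower here too (-0.99 ± 0.32, edgeR adjusted p = 0.0362), lost its call in 6 settings (0.0535 to 0.126), 5 of them the removal of a UV-B library other than uvr8-6 replicate 2. In group IV, whose proteins carry a pair of B-boxes and include regulators that act with HY5, 4 of 7 tested genes were called higher in wild type and 1 lower. BBX22 rose by 1.61 ± 0.16, BBX25 by 1.01 ± 0.10 and BBX18 by 1.12 ± 0.23 on the log2 scale, and BBX21 fell by 0.54 (edgeR adjusted p = 3.4e-06, 3.11e-06, 0.0024 and 0.00815). BBX1 (CONSTANS), the partner that BBX30 and BBX31 bind, was called higher in wild type (1.01 ± 0.35, edgeR adjusted p = 0.0442). That call was lost with upper quartile scaling and limma-voom (adjusted p = 0.0626 and 0.0537) and on leaving out white light replicate 1, 2 or 3 or UV-B replicate 1 or 3 of wild type (edgeR adjusted p from 0.072 to 0.217).

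**Figure D5:**
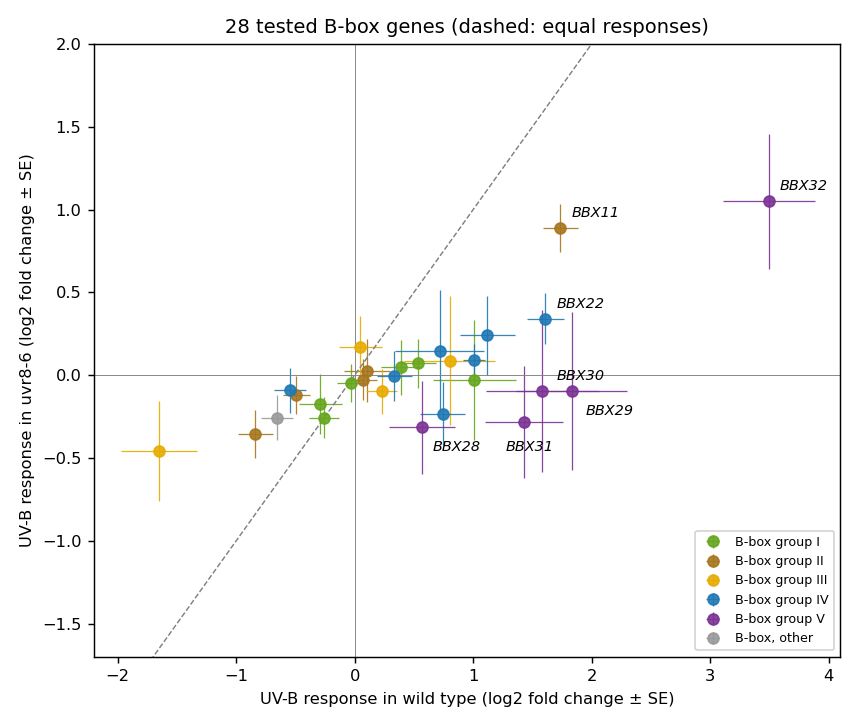
UV-B response of the 28 tested B-box genes in wild type (horizontal axis) against that in uvr8-6 (vertical axis), as log2 fold change ± SE, coloured by structural group, with a dashed line of equal responses. The 5 group V genes lie to the right of the line, with BBX32 at 3.50 and 1.05. BBX11, BBX22, BBX24 and BBX25 lie to the right of it too. In uvr8-6 most B-box genes lie near 0, including BBX28, BBX29, BBX30 and BBX31 at -0.314 to -0.095.

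Genes of light signalling, TOPLESS corepressors, PIF factors and florigens were counted by list. Of 10 genes of the HY5 and COP1 axis 9 were called higher in wild type under UV-B (16.1% of all genes), with a median log2 fold change of 1.19, and the median in uvr8-6 was 0.22. The difference of the responses was called higher for 8 (4.88% of all genes), and all 10 were called higher in wild type than in uvr8-6 under UV-B (14.4%), UVR8 itself included. UVR8 is the gene mutated in uvr8-6 and was called lower there in white light too. HY5 rose by 1.99 ± 0.14, RUP1 and RUP2, repressors of UVR8, by 1.97 ± 0.11 and 3.2 ± 0.20, and SPA4, a partner of COP1, by 1.39 ± 0.09 on the log2 scale. Among the 8 differences the calls of HYH, SPA1 and SPA3 were each lost on leaving out single libraries. For HYH these were any 1 of the 12 wild-type and uvr8-6 libraries except wild type white light replicate 2, wild type UV-B replicate 2 and uvr8-6 white light replicate 1 (edgeR adjusted p from 0.0541 to 0.0965). For SPA1 they were any except wild type white light replicate 2, wild type UV-B replicate 1 and uvr8-6 UV-B replicate 2, and 5 other settings lost it too (0.0529 to 0.148). For SPA3 they were wild type white light replicate 3, wild type UV-B replicates 1 and 3, uvr8-6 white light replicates 2 and 3 and uvr8-6 UV-B replicates 2 and 3, and upper quartile scaling lost it too (0.0513 to 0.073). Of 5 TOPLESS corepressor genes TPR3 was called higher (0.48 ± 0.14) and TPR1 lower (-0.29 ± 0.09) in wild type (16.1% and 11.3% of all genes). Both calls were lost without white light replicate 2, UV-B replicate 2 or UV-B replicate 3 of wild type, TPR3 also without white light replicate 1 and TPR1 without white light replicate 3 (edgeR adjusted p from 0.0506 to 0.071 for TPR3 and from 0.0548 to 0.121 for TPR1). Of 7 PIF genes PIF8 (1.70 ± 0.11), PIF6 (1.28 ± 0.19) and PIF7 (1.13 ± 0.18) were called higher in wild type and PIF3 (-0.83 ± 0.17) lower (16.1% and 11.3% of all genes). In uvr8-6 PIF6 was also called higher (1.01 ± 0.19, edgeR adjusted p = 0.0173), a call lost without uvr8-6 white light replicate 1 or 3 or uvr8-6 UV-B replicate 3 (0.0608 to 0.115). In pif4-101 pif5-1 PIF8 was called lower than in wild type (-0.58 ± 0.11, edgeR adjusted p = 0.00927), which the compared groups alone lost (0.0522). The florigen genes FT and TSF, targets of CONSTANS, had too few reads to be tested, with highest levels of 0.174 and 0.392 CPM.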

How the data were processed

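Per the labels' protocols, stranded mRNA libraries of whole-seedling RNA were read in single 100 bp reads. The deposited table used here holds the authors' unscaled read counts for each gene in each library, and a second, normalized table was not used here. The submitters' processing notes list, with no roles, the build TAIR10 and the tools STAR 2.5.3a, HTSeq 0.9.1, FastQC 0.11.5 and edgeR 3.22.3, and whether counting used strand is not given in the sources used here. Coordinates and sequences are from RefSeq's TAIR10.1.

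Genes were filtered with filterByExpr and scaled by TMM, and all 15 libraries entered 1 model of the 5 groups (10 residual degrees of freedom) with edgeR 4.0.16 in R 4.3.3, using its quasi-likelihood test, two-sided. Alternatives were other scalings, no filter, DESeq2 1.42.0, limma-voom (limma 3.58.1), a replicate block, the compared groups alone, 1 surrogate variable (sva 3.50.0) and each library left out. Leaving out both white-light replicate 2 libraries was added after seeing the data. Groups came from the sample titles. The genes, lists and comparisons were chosen with earlier results of these data known, and the promoter window after the sequences had been seen. Genes outside the group were named where called (at most 4 per list and comparison, by p), as neighbours, or as the 3 most similar in pattern. A few others were named for a lost call, for too few reads or, for PIF4, as a mutated gene. Deviations from the group mean correlated between same-numbered libraries of wild type and uvr8-6 in white light (0.33, 0.60 and 0.39). This met the rule used for pairing, on the data and not the labels. Libraries with different numbers were not compared, so the check cannot show that the numbers pair the samples. Other pairs of groups did not meet that rule in every pair. Between white light and UV-B the correlations were -0.32, -0.17 and 0.13 in wild type and 0.01, -0.28 and -0.22 in uvr8-6. The main model held no replicate term. The method was tested on simulated counts. These were drawn independently for each gene and library, without the shared deviations seen here, so they do not test the calls made on these data. The limit of 3 reads covers counting error only.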

Additional observations from a re-analysis of the deposited data

Results flagged for a closer look

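The UV-B response differed between wild type and uvr8-6 by a test of the difference itself for 6 B-box genes, each given here as the response in wild type minus that in uvr8-6 on the log2 scale, with the edgeR adjusted p. In group V these were BBX32 with 2.448 (adjusted p = 0.0161) and BBX31 with 1.711 (0.0448). The others were BBX11 with 0.848 (0.0225), BBX22 with 1.268 (0.00235), BBX24 with 0.974 (0.045) and BBX25 with 0.916 (0.000829). The calls of BBX22 and BBX25 held in every alternative run. That of BBX32 was lost in 1, without uvr8-6 white light replicate 3 (adjusted p = 0.0631), and those of BBX11, BBX24 and BBX31 were each lost in several. For BBX11 these were the removal of wild type white light replicate 1 or 3, wild type UV-B replicate 3, uvr8-6 white light replicate 2 or 3, or uvr8-6 UV-B replicate 1 or 3 (adjusted p from 0.0502 to 0.0774). For BBX24 they were upper quartile scaling (0.0664), a replicate block (0.0523), the compared groups alone (0.0597), and the removal of wild type white light replicate 1, 2 or 3, wild type UV-B replicate 2 or 3, uvr8-6 white light replicate 1 or 3, or uvr8-6 UV-B replicate 1 or 3 (0.0502 to 0.122).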

How the results depend on the processing

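The count of group V genes called in the difference of the responses, 2 here, was 1 with upper quartile scaling, limma-voom or a replicate block, and 0 to 3 on leaving out single libraries (0 without uvr8-6 white light replicate 3). Between the genotypes under UV-B it was 5 and fell to 3 without uvr8-6 UV-B replicate 1 or 3. In the other comparisons the count stayed within 1.5 times the value given. The cause was not tested.

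Over all genes the uvr8-6 response gave 640 calls with DESeq2, 367 with a replicate block, 374 with 1 surrogate variable and 43 to 393 on leaving out libraries, against 233. It moved by over 1.5 times without uvr8-6 white light replicate 1 (43) or 3 (49) and without uvr8-6 UV-B replicate 1 (120), 2 (393) or 3 (100). The comparison of pif4-101 pif5-1 with wild type gave 1797 with DESeq2, 278 with the compared groups alone, 1804 with the surrogate variable and 335 to 1459 on leaving out libraries, against 1095. It moved by over 1.5 times without wild type white light replicate 1 (335) or 3 (492) and without pif4-101 pif5-1 replicate 1 (381) or 3 (412). The difference of the responses gave 2190 with the surrogate variable and 877 to 1247 on leaving out libraries (877 without uvr8-6 white light replicate 3), against 1375, and uvr8-6 against wild type in white light 6 with DESeq2, against 3, and 3 with the replicate block. The block was entered for all 15 libraries, although the numbers met the pairing rule only between wild type and uvr8-6 in white light. It changed no call of a group V gene except BBX31 in the difference of the responses.

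Changes of sign were met for uncalled group V values alone, given here as log2 fold changes. In the main model these values lay between -0.389 (BBX32) and 0.054 (BBX29), both for uvr8-6 against wild type in white light. In the uvr8-6 response, leaving out single libraries gave -0.591 to 0.264 for BBX29, -0.711 to 0.196 for BBX30 and -0.573 to 0.039 for BBX31. The surrogate variable gave 0.285 for BBX29 and 0.247 for BBX30, and limma-voom 0.054 for BBX30. For uvr8-6 against wild type in white light, leaving out libraries gave -0.466 to 0.088 for BBX28, -0.311 to 0.395 for BBX29, -0.405 to 0.311 for BBX30, -0.331 to 0.265 for BBX31 and -0.811 to 0.367 for BBX32. Without both replicate 2 libraries BBX30 was at 0.053 and BBX31 at 0.076, limma-voom gave -0.023 for BBX29 and the surrogate variable 0.057 for BBX31. For pif4-101 pif5-1 against wild type BBX28 was at -0.19 to 0.224 on leaving out libraries and at -0.178 without both replicate 2 libraries. The number of libraries, and the few reads of BBX32 in white light, limit what could be detected.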
